A study of Mus musculus with 16 samples.

Results

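The circadian output transcription factors examined here were *Dbp*, *Tef*, *Hlf*, *Nfil3*, *Bhlhe40*, *Bhlhe41*, *Ciart* and *Rora*, 8 of the 41388 genes in the count table. They were chosen by matching these symbols to the table. They were followed in quadriceps RNA from C57BL/6 mice at postnatal day 36 in 4 groups: wild type on standard chow (WT), wild type given tamoxifen (WT + TAM), *Mtm1* knockout on standard chow (*Mtm1* KO) and *Mtm1* knockout given tamoxifen (*Mtm1* KO + TAM). The knockout lacks an exon of *Mtm1*, the phosphoinositide phosphatase gene mutated in X-linked myotubular myopathy, in the whole body, so that every cell type of the muscle carries the deletion. Tamoxifen, an estrogen receptor modulator, was mixed into the diet at 40 mg/kg per day from day 21 to day 36. Each group held 4 libraries, and the main set was the 14 libraries used in the paper, which leaves out WT replicate 1 and *Mtm1* KO replicate 12. The labels give no time of day of collection and do not say whether the libraries of a group came from separate litters or days, so the p-values measure only the spread between these libraries.

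The mammalian clock is a feedback loop in which CLOCK and BMAL1 (the product of *Arntl*) activate genes through E-box elements, and the PER and CRY proteins repress this activity. Output factors carry the rhythm on to other genes. DBP, TEF and HLF are PAR bZIP activators that bind D-box elements, and NFIL3 is a bZIP repressor that binds the same elements. BHLHE40 and BHLHE41 (DEC1 and DEC2) are repressors that bind E-boxes, CIART (also called CHRONO) represses CLOCK and BMAL1, and RORα activates genes such as *Arntl* through ROR elements. In skeletal muscle, genes of fuel use vary over the day under this system.

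The main libraries held 25702605 to 29847222 counts each. Values are given below as CPM, read counts scaled to library size with TMM normalization over the 16 libraries. *Mtm1* stood at 13.8 ± 0.70 CPM (SD, n = 3) in WT, 14.7 ± 2.74 (n = 4) in WT + TAM, 2.35 ± 0.26 (n = 3) in *Mtm1* KO and 2.61 ± 0.58 (n = 4) in *Mtm1* KO + TAM, while the library labelled WT replicate 1 held 3.69 CPM, near the knockout levels and against its label. The 10 muscle fiber markers summed to 154000 to 210000 CPM in WT and 165000 to 178000 in WT + TAM, against 100000 to 115000 in *Mtm1* KO and 90800 to 131000 in *Mtm1* KO + TAM. The markers did not all follow this sum. In *Mtm1* KO against WT, *Des*, *Myh1*, *Myh2* and *Mb* were fitted higher and the other 6 lower. *Des*, the intermediate filament gene, was the 1 called (0.98, adjusted p = 0.00832), beside 3.6% of all genes. Its call held in 1 of the 6 fits that left out a library. The 10 immune cell markers summed to 171 to 197 and 72.4 to 213 CPM in the wild-type groups, against 271 to 420 and 246 to 360 in the knockout groups, and no gene of either list was at 0 in a group. The 6 fibroblast markers summed to 4490 to 5320 CPM in WT and 2680 to 4160 in WT + TAM, and to 3610 to 4900 and 3690 to 4380 in the knockout groups, and the fat cell markers ranged widely within WT (275 to 1800) and WT + TAM (744 to 2860). The 5 endothelial markers summed to 267 to 390 CPM in WT, 211 to 270 in WT + TAM, 212 to 321 in *Mtm1* KO and 168 to 268 in *Mtm1* KO + TAM. All 5 were fitted lower in *Mtm1* KO + TAM against WT, where *Cdh5*, an endothelial cadherin gene, was called (-1.01, adjusted p = 0.0054), beside 7.7% of all genes. The call of *Cdh5* held in 3 of the 7 fits that left out a library. In bulk muscle, fewer cells of a type and less RNA per cell cannot be told apart, and the part of these markers in the results below was not tested.

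Set on a scale that allows for gene length, the authors' RPKM, *Dbp* was the most abundant of the 8 factors, with a mean of 40.3 over the 14 libraries (range 9.32 to 69.9). *Tef* followed at 35.1 (26.2 to 56.4) and *Bhlhe40* at 33.1 (21.6 to 47.6), and the ranges of these 3 genes overlapped. *Nfil3* stood at 16.2 RPKM (6.81 to 23.4), *Rora* at 9.21 (6.30 to 14.4) and *Bhlhe41* at 8.15 (5.41 to 10.9), and the ranges of these 3 genes overlapped too. *Ciart* at 2.02 RPKM (0.45 to 4.98) and *Hlf* at 1.76 (0.77 to 4.44) were the lowest and overlapped each other, while the highest *Ciart* library lay below the lowest *Bhlhe41* library. The factors varied unequally from mouse to mouse. The highest library exceeded the lowest 11.1-fold for *Ciart*, 7.50-fold for *Dbp* and 5.77-fold for *Hlf*, but 2.02-fold for *Bhlhe41*, 2.15-fold for *Tef* and 2.21-fold for *Bhlhe40*.

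**Figure D1:**
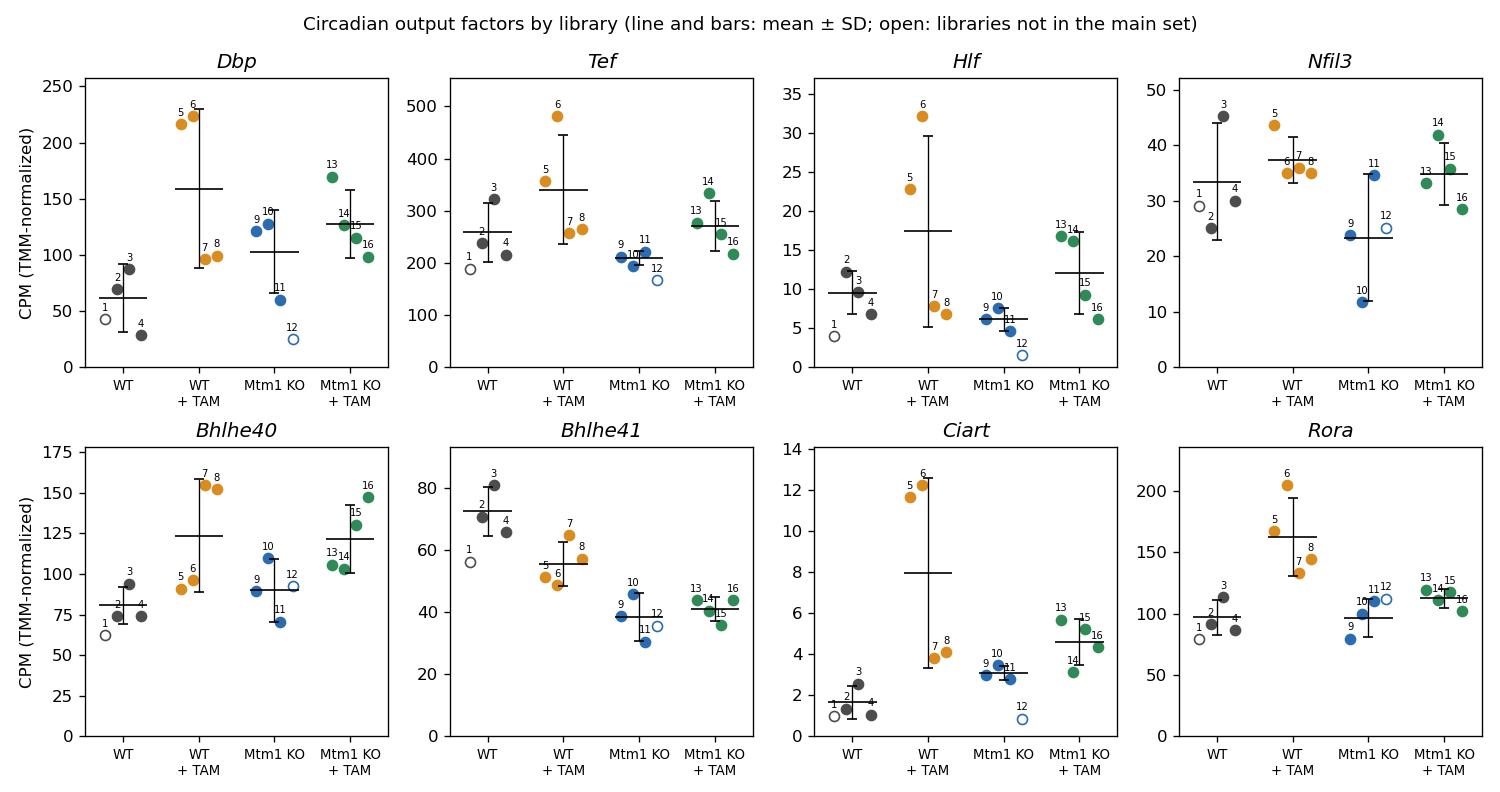
Level of each circadian output factor in every library, in TMM-normalized CPM on axes that start at 0. Filled points are the main libraries, labelled by replicate number, open points are the 2 libraries left out of the main set, and the line and bars are the mean ± SD of the main libraries; the 3 WT libraries of *Bhlhe41* (65.7 to 81.0 CPM) lie above all *Mtm1* KO and *Mtm1* KO + TAM libraries, and WT + TAM replicates 5 and 6 lie far above replicates 7 and 8 for *Dbp*, *Hlf* and *Ciart*.

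The promoters show which clock elements lie close to the start sites of these genes. RefSeq sequences (GRCm38.p6) from 250 bases before to 50 bases after the start were at hand for 7 of the 8 genes, in 8 promoters since *Tef* has 2 starts. Both strands were searched for the E-box CACGTG, its variant CACGTT, the D-box TTATGTAA or TTACGTAA, the ROR element core TAGGTCA or TGGGTCA and the cAMP response element TGACGTCA, and no matches overlapped each other in these promoters. The promoters with an E-box or a ROR element core are shown 5′ to 3′ on the gene's strand, with the matches in capitals, at chr3:95882179-95882478 (*Ciart*, minus strand), chr6:145865371-145865670 (*Bhlhe41*, minus strand), chr15:81802423-81802722 and chr15:81811164-81811463 (*Tef*, plus strand) and chr13:52980990-52981289 (*Nfil3*, minus strand).
Ciart: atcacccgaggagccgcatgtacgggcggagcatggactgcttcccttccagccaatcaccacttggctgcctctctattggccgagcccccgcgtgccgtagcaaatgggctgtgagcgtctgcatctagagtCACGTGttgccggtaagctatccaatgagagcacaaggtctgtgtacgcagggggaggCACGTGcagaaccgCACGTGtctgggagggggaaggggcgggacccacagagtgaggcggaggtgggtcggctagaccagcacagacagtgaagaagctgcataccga
Bhlhe41: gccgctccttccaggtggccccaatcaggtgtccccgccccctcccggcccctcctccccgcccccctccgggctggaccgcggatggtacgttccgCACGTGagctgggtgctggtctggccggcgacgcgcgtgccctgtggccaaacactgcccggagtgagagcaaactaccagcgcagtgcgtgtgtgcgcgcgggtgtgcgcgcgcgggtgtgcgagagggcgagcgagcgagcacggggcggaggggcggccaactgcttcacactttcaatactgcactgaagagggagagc
Tef, first start: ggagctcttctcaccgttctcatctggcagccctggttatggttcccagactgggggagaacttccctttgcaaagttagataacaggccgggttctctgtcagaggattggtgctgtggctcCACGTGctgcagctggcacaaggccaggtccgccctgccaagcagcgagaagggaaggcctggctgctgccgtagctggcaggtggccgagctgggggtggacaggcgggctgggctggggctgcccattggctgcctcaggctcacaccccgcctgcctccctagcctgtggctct
Tef, second start: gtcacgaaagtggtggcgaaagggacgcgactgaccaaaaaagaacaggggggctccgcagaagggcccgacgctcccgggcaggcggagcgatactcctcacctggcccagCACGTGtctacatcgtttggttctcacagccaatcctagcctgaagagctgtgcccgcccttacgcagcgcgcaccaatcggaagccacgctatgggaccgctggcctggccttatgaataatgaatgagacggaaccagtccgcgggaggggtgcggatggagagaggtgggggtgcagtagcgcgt
Nfil3: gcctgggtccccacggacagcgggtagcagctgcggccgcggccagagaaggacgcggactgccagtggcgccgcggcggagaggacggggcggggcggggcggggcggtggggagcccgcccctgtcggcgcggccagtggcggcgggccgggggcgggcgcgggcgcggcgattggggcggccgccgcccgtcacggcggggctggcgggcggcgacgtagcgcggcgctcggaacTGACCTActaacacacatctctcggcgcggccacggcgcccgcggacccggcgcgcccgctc
*Ciart* held 3 E-boxes, beginning 116, 58 and 44 bases before the start. *Bhlhe41* held 1, beginning 153 bases before the start, and *Tef* held 1 at each start, beginning 127 and 138 bases before it. Of the 32851 promoters in the table, 7.15% held an E-box and 0.0883% held 3 or more. The ROR element core of *Nfil3* (TGACCTA as printed, read on the other strand) began 12 bases before the start, a motif found in 6.45% of promoters. *Hlf* held a cAMP response element beginning 9 bases before its start, present in 1.79% of promoters. *Dbp* and *Rora* had no match in this window, and neither the E-box variant (4.68% of promoters) nor the D-box (1.06%) was matched in any of the 8. A match is a description of the letters only.

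**Figure D2:**
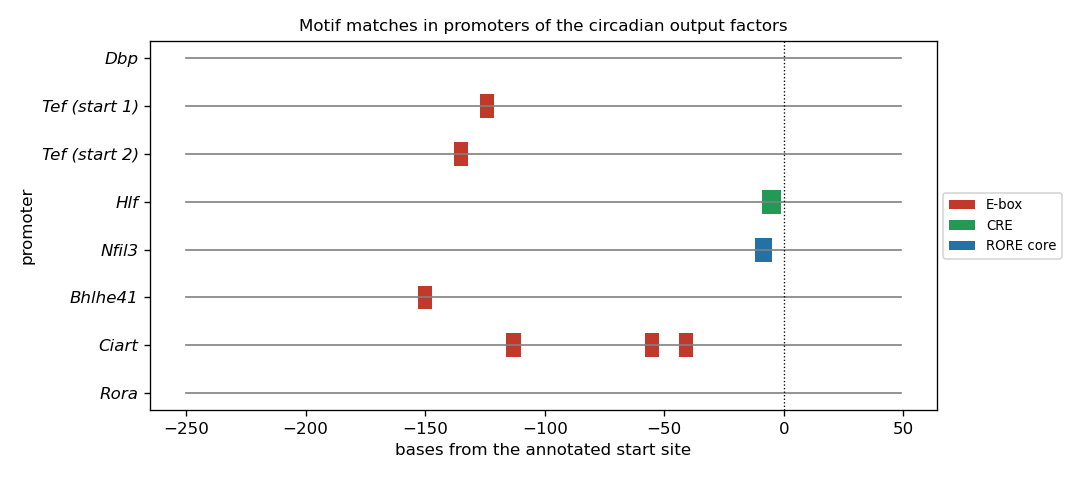
Positions of the motif matches in the 8 promoters, in bases from the annotated start site (dotted line). Each horizontal line is a promoter and each block a match, coloured by motif; *Ciart* carries 3 E-boxes between 116 and 39 bases before its start, while *Dbp* and *Rora* carry no block.

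Of the 8 factors, *Bhlhe41* alone was called, in *Mtm1* KO + TAM against WT (edgeR's quasi-likelihood test, adjusted p of at most 0.01 after Benjamini-Hochberg adjustment over all genes). This comparison differs in both genotype and tamoxifen, whose parts cannot be told apart in it. For *Mtm1* KO against WT none of the 8 was called, beside 3.6% of the 14740 genes tested. At an unadjusted p of at most 0.05 stood *Bhlhe41*, *Ciart* and *Hlf*, beside 30.1% of all genes. The 3 factors fitted higher in *Mtm1* KO were *Dbp*, *Ciart* and *Bhlhe40*, and the median log2 fold change of the 8 was -0.15, against 0.02 over all genes. The call of *Bhlhe41* in *Mtm1* KO + TAM against WT compares with 7.7% of 14942 genes called, or 4.14% called lower. None was called in *Mtm1* KO + TAM against WT + TAM, beside 6.72% of 14563 genes, and all 8 were fitted lower (median -0.40), with 2 (*Rora* and *Bhlhe41*) at an unadjusted p of at most 0.05, beside 32.3% of genes. At a threshold of 0.05 these comparisons called 12.8%, 20.0% and 17.0% of genes and 1, 4 and 2 of the 8 factors, and DESeq2 called 11.4%, 15.9% and 13.7% of genes and 1, 3 and 2 factors. The lower direction of all 8 in *Mtm1* KO + TAM against WT + TAM depends on scaling and on the libraries used. With library size as the only scaling, *Nfil3* (log2 fold change 0.17) and *Bhlhe40* (0.24) were fitted higher. The median of all genes then stood at 0.27, where it was 0.33 for *Mtm1* KO and 0.28 for *Mtm1* KO + TAM against WT. Without WT + TAM replicates 5 and 6, *Dbp* (0.35), *Tef* (0.02), *Hlf* (0.69) and *Ciart* (0.19) were fitted higher, and without replicates 7 and 8 *Bhlhe40* (0.37) was.

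The comparisons that ask what tamoxifen changed gave no call among the 8 factors. All 8 were fitted higher, in *Mtm1* KO + TAM against *Mtm1* KO, with a median log2 fold change of 0.39 beside -0.01 over all genes. The 4 factors at an unadjusted p of at most 0.05 were *Hlf*, *Bhlhe40*, *Ciart* and *Tef*, where 7.55% of the 15062 genes tested reached that level. The test called 0.0% of these genes, with 1137 at an unadjusted p of at most 0.05, and DESeq2 called 0.478% and none of the 8. In WT + TAM against WT, 7 of the 8 were fitted higher and *Bhlhe41* lower, with a median of 0.67. The test called 0.131% of 14544 genes, and 5 factors (*Rora*, *Ciart*, *Dbp*, *Bhlhe41* and *Bhlhe40*) were at an unadjusted p of at most 0.05, as were 10.7% of all genes. DESeq2, which called 1.47% of the genes there, called *Ciart* (adjusted p = 7.92e-05) and *Rora* (adjusted p = 0.00118). The 5 comparisons share groups, so that the same WT and *Mtm1* KO + TAM libraries stand behind several of these values. Groups without overlap are named below for some factors, and the share of all genes that separate in this way was not counted.

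**Figure D3:**
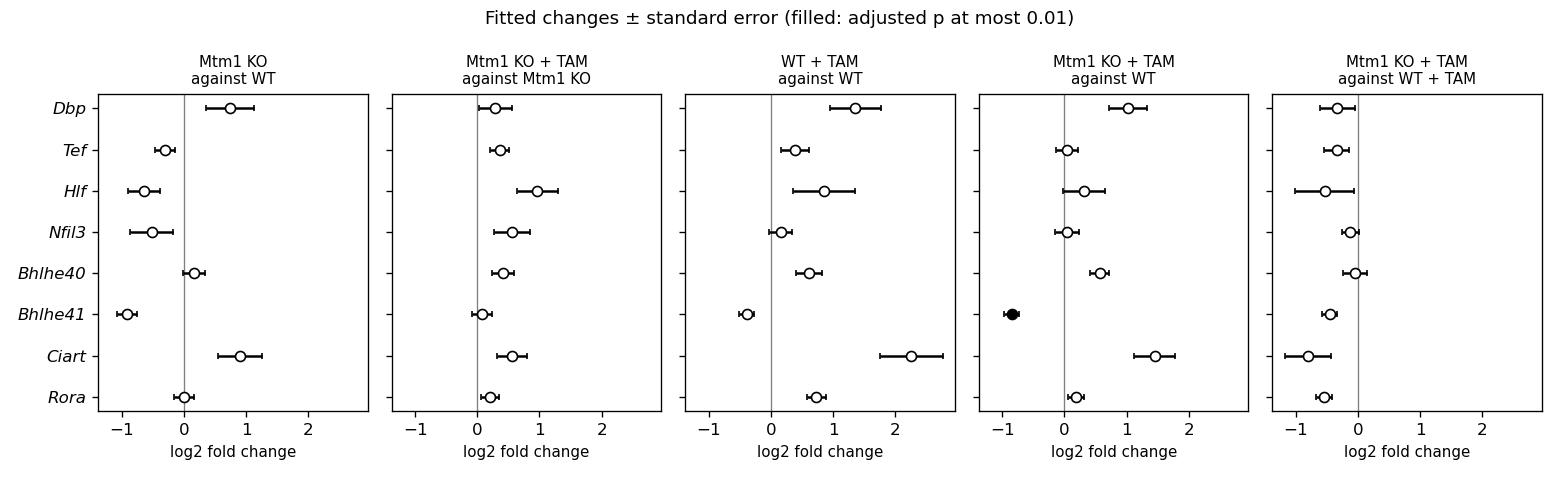
Log2 fold change (x axis) ± standard error of each factor (rows) in the 5 pairwise comparisons (panels), from edgeR's quasi-likelihood fit on the main libraries. The filled point, *Bhlhe41* at -0.85 in *Mtm1* KO + TAM against WT, is the value at an adjusted p of at most 0.01, and open points are above it; in *Mtm1* KO + TAM against *Mtm1* KO all 8 points lie right of 0, from 0.08 to 0.97.

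*Bhlhe41*, the E-box repressor DEC2, was the factor whose libraries separated in CPM in all 3 comparisons of a knockout with a wild-type group. It lies on chromosome 6 from 145858243 to 145865558 (GRCm38, minus strand), and 19.0% of its exon bases are covered by exons of Gm43909 on the other strand. Its levels in WT replicates 2 to 4 were 70.7, 81.0 and 65.7 CPM. WT + TAM replicates 5 to 8 held 51.3, 48.8, 64.8 and 57.3 CPM, all below WT. *Mtm1* KO replicates 9 to 11 held 38.8, 45.9 and 30.5 CPM and *Mtm1* KO + TAM replicates 13 to 16 held 43.9, 40.5, 35.9 and 43.9 CPM. In CPM, both knockout groups lay wholly below both wild-type groups, and the 2 knockout groups overlapped each other. In RPKM, both knockout groups lay below WT but overlapped WT + TAM (7.17 to 9.56). The highest RPKM was 8.63 in *Mtm1* KO and 7.41 in *Mtm1* KO + TAM. Against WT, *Bhlhe41* fell by 0.85 on the log2 scale in *Mtm1* KO + TAM (SE 0.12, adjusted p = 0.00119), a 1.80-fold lower level. It remained called when each of the 7 libraries was left out in turn, with adjusted p from 0.00209 to 0.00497, and missed the threshold with all 16 libraries (log2 fold change -0.77, adjusted p = 0.0110).

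The log2 fold change of *Bhlhe41* in *Mtm1* KO against WT was -0.91 (SE 0.17), and its adjusted p of 0.0105 just missed the threshold. DESeq2 called it there (adjusted p = 9.34e-06), at 11.4% of genes called. The exact two-sided permutation test of the difference of -34.1 CPM gave p = 0.1, the smallest that 3 against 3 libraries allow. Scaled by library size alone, the log2 fold change was -0.59 (adjusted p = 0.034), and that against WT in *Mtm1* KO + TAM was -0.57 (adjusted p = 0.00446). The 2 libraries left out held 56.3 CPM (labelled WT replicate 1) and 35.7 (*Mtm1* KO replicate 12). Taken by their labels, they kept WT apart from both knockout groups in CPM but not in RPKM. The library labelled WT replicate 1 held 7.185 RPKM, within *Mtm1* KO (5.41 to 8.63) and *Mtm1* KO + TAM (6.70 to 7.41). The library labelled WT replicate 1 had an *Mtm1* level near the knockouts, however. Its 56.3 CPM of *Bhlhe41* lay within the WT + TAM range (48.8 to 64.8) and above every *Mtm1* KO library. With tamoxifen in both arms, *Bhlhe41* was lower in *Mtm1* KO + TAM than in WT + TAM by a log2 fold change of -0.46 (SE 0.12, adjusted p = 0.0283). With library size alone it was lower by -0.18 (adjusted p = 0.285). These groups did not overlap in CPM but did in RPKM. Tamoxifen went with a log2 fold change of -0.39 in WT (SE 0.13, adjusted p = 0.293) and 0.08 in *Mtm1* KO (SE 0.16, adjusted p = 0.950), and the difference of these effects was 0.48 (SE 0.21, unadjusted p = 0.0336, adjusted p = 0.9998).

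*Bhlhe40*, the other DEC repressor, which also responds to low oxygen and to glucocorticoids in many cells, did not follow its paralog. It lies on chromosome 6 from 108660629 to 108666925. It stood at 74.1, 94.0 and 74.1 CPM in WT, 89.3, 109.7 and 70.5 in *Mtm1* KO and 105.8, 103.2, 130.4 and 147.3 in *Mtm1* KO + TAM. WT + TAM split, with 90.9 and 96.1 CPM in replicates 5 and 6 and 155 and 152 in replicates 7 and 8. All *Mtm1* KO + TAM libraries lay above all WT libraries. The log2 fold change in *Mtm1* KO + TAM against WT was 0.57 (SE 0.15) and missed the threshold (adjusted p = 0.0233), while DESeq2 (adjusted p = 0.00317) and library size scaling (0.85, adjusted p = 0.0026) passed it. For tamoxifen against standard chow it was 0.42 in *Mtm1* KO (SE 0.18, adjusted p = 0.615) and 0.61 in WT (SE 0.21, adjusted p = 0.327). The value in WT was 0.93 without WT + TAM replicates 5 and 6 and 0.21 without replicates 7 and 8. Without tamoxifen the log2 fold change was 0.16 in *Mtm1* KO against WT (SE 0.18, adjusted p = 0.592).

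*Dbp*, an activator whose transcript swings widely over the day in most tissues, varied as much within groups as between them. It lies on chromosome 7 from 45705088 to 45710203, and 18.0% of its exon bases are shared with *Sphk2* on the other strand. WT held 69.6, 87.7 and 28.8 CPM and *Mtm1* KO held 121, 128 and 60.2 CPM, which overlapped. WT + TAM replicates 5 and 6 held 216 and 224 CPM, whereas replicates 7 and 8 held 96.2 and 99.3. *Mtm1* KO + TAM held 169.7, 127 and 116 CPM and 98.6 in replicate 16. Every library of the tamoxifen groups lay above every WT library. The log2 fold change against WT was 1.36 in WT + TAM (SE 0.41, adjusted p = 0.262), 1.02 in *Mtm1* KO + TAM (SE 0.31, adjusted p = 0.0414) and 0.74 in *Mtm1* KO (SE 0.39, adjusted p = 0.233). Without WT + TAM replicates 5 and 6 the value for WT + TAM was 0.66, and without replicates 7 and 8 it was 1.83. Between *Mtm1* KO + TAM and *Mtm1* KO it was 0.29 (SE 0.26, adjusted p = 0.870).

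*Hlf*, a low-abundance member of the same family on chromosome 11 (90336536 to 90390895), showed the widest split among the WT + TAM libraries of the 8 factors. Replicates 5 and 6 held 22.9 and 32.2 CPM, and replicates 7 and 8 held 7.88 and 6.85. The levels were 12.3, 9.65 and 6.81 CPM in WT, 6.20, 7.60 and 4.64 in *Mtm1* KO and 16.9, 16.2, 9.32 and 6.15 in *Mtm1* KO + TAM. All 4 groups overlapped each other. The log2 fold change was 0.97 in *Mtm1* KO + TAM against *Mtm1* KO (SE 0.33, unadjusted p = 0.0144, adjusted p = 0.481) and -0.64 in *Mtm1* KO against WT (SE 0.26, adjusted p = 0.140). In WT + TAM against WT it was 0.85 (SE 0.50, adjusted p = 0.596) and took the other sign, -0.38, without replicates 5 and 6.

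*Tef*, the third PAR bZIP activator, lies on chromosome 15 from 81802421 to 81826863. It was steadier, at 238, 323 and 216 CPM in WT, 212, 194 and 222 in *Mtm1* KO and 278, 333, 256 and 218 in *Mtm1* KO + TAM. WT + TAM held 356 and 482 CPM in replicates 5 and 6 and 258 and 265 in replicates 7 and 8. The groups overlapped in each of the 5 comparisons. Its log2 fold change of 0.36 in *Mtm1* KO + TAM against *Mtm1* KO (SE 0.16, unadjusted p = 0.0431) had an adjusted p of 0.635. Between *Mtm1* KO and WT it was -0.30 (SE 0.16, adjusted p = 0.234) with TMM and 0.02 with library size alone.

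*Nfil3*, the repressor that opposes these activators at D-boxes, lies on chromosome 13 from 52967209 to 52981073. It held 25.1, 45.2 and 29.99 CPM in WT, 43.6, 34.9, 35.9 and 34.9 in WT + TAM, 23.8, 11.7 and 34.6 in *Mtm1* KO and 33.1, 41.9, 35.8 and 28.5 in *Mtm1* KO + TAM. The groups overlapped in each of the 5 comparisons, and the lowest value was that of *Mtm1* KO replicate 10. The split of the WT + TAM libraries that marked the activators was absent here. The log2 fold changes ran from -0.51 in *Mtm1* KO against WT (SE 0.35, adjusted p = 0.357) up to 0.56 for *Mtm1* KO + TAM against *Mtm1* KO (SE 0.29, adjusted p = 0.717).

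*Ciart*, the repressor with 3 E-boxes in its promoter, had the largest fitted difference with tamoxifen in wild-type muscle. It lies on chromosome 3 from 95878503 to 95882251, and 11.9% of the 50-base stretches of its exons also occur in another gene, mostly Gm9176, so that its counts are uncertain to that extent. WT held 1.35, 2.57 and 1.07 CPM, and *Mtm1* KO held 2.98, 3.46 and 2.78, above all WT libraries. WT + TAM held 11.6 and 12.2 CPM in replicates 5 and 6 and 3.79 and 4.09 in replicates 7 and 8. *Mtm1* KO + TAM held 5.68, 3.13, 5.22 and 4.35 CPM. Each of these 3 groups lay above WT without overlap. The exact permutation p was 0.1 for *Mtm1* KO and 0.0571 for each tamoxifen group, the smallest these group sizes allow. The log2 fold change against WT was 2.26 in WT + TAM (SE 0.51, adjusted p = 0.104), 1.45 in *Mtm1* KO + TAM (SE 0.33, adjusted p = 0.0127) and 0.90 in *Mtm1* KO (SE 0.35, adjusted p = 0.126). Without WT + TAM replicates 5 and 6 the value for WT + TAM was 1.255, and without replicates 7 and 8 it was 2.85. The 2 libraries left out, at 0.997 CPM in the library labelled WT replicate 1 and 0.863 in *Mtm1* KO replicate 12, end the separation of *Mtm1* KO from WT. The tamoxifen effect in *Mtm1* KO minus that in WT was -1.68 for *Ciart* (SE 0.58, unadjusted p = 0.0103, adjusted p = 0.989), where 0.0% of 15556 genes passed and DESeq2 called 0.0771%, none of them among the 8 factors. It was -0.69 without WT + TAM replicates 5 and 6.

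*Rora*, which codes for the activating receptor at ROR elements, lies on chromosome 9 from 68653786 to 69388246. WT held 91.6, 113 and 86.4 CPM, *Mtm1* KO held 79.6, 99.9 and 110.3 and *Mtm1* KO + TAM held 119.5, 111, 118 and 102. WT + TAM held 167, 205, 133 and 144 CPM, above every library of the other 3 groups. In RPKM, WT + TAM (9.38 to 14.4) and *Mtm1* KO + TAM (8.26 to 10.5) overlapped. The log2 fold change in WT + TAM against WT was 0.73 (SE 0.16, unadjusted p = 9.24e-04, adjusted p = 0.0840), and it was 0.51 without replicates 5 and 6. *Mtm1* KO + TAM differed from WT + TAM by -0.54 (SE 0.14, adjusted p = 0.0195) with TMM and by -0.26 (adjusted p = 0.190) with library size alone. The value for *Mtm1* KO against WT was -0.0012 (SE 0.16, adjusted p = 0.996) with TMM and 0.31 (adjusted p = 0.131) with library size alone. The difference of the tamoxifen effects was -0.52 (SE 0.22, unadjusted p = 0.0292, adjusted p = 0.9998).

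The split of the WT + TAM libraries ran through the clock genes themselves. *Arntl*, which codes for the activator BMAL1, held 3.92 and 2.63 CPM in replicates 5 and 6 and 17.3 and 16.1 in replicates 7 and 8, the reverse of *Dbp*, *Hlf* and *Ciart*. *Per2*, a repressor gene activated through E-boxes, held 27.3 and 35.4 CPM in replicates 5 and 6 and 6.83 and 5.09 in replicates 7 and 8. *Bhlhe40* ran with *Arntl*, with higher levels in replicates 7 and 8. The time of day behind each library is not given in the labels, and its part in these values was not tested.

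**Figure D4:**
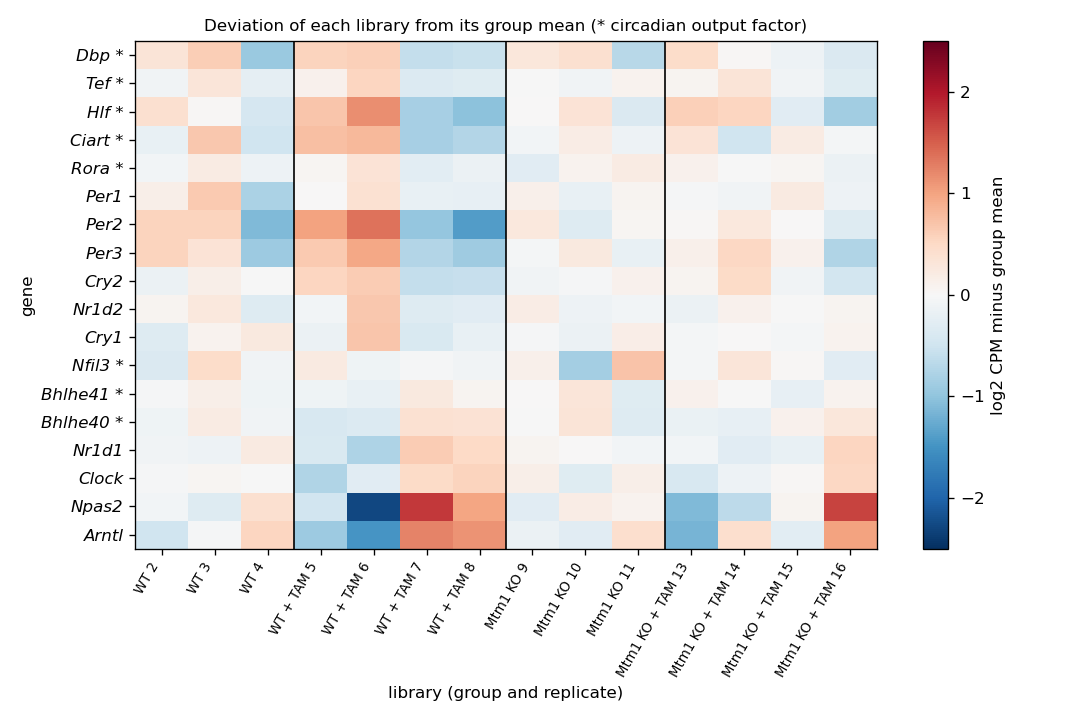
Deviation of each of the 14 libraries (columns) from the mean of its group, in log2 CPM, for the 8 output factors (marked with an asterisk) and 10 core clock genes; red is above and blue below the group mean. In WT + TAM, *Hlf* runs from 1.17 in replicate 6 to -1.03 in replicate 8, and *Arntl* runs the other way, from -1.47 in replicate 6 to 1.24 in replicate 7.

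To ask whether the factors followed the clock from library to library, the deviations of each factor from its group mean were related to those of *Arntl* over the 14 libraries, with an exact permutation test over the 20736 orders within groups and adjustment over 8 relations. The points share their library, and so its depth and scaling. *Dbp* ran against *Arntl* (r = -0.80, exact two-sided p = 0.00183, adjusted p = 0.0147, Spearman rho = -0.78, adjusted p = 0.0355). *Hlf* did so too (r = -0.90, exact p = 0.00926, adjusted p = 0.0370, rho = -0.90, adjusted p = 0.0355). For *Ciart* (r = -0.82, adjusted exact p = 0.0865), *Rora* (r = -0.62, adjusted exact p = 0.0865), *Tef* (r = -0.66, adjusted exact p = 0.140) and *Bhlhe40* (r = 0.62, adjusted exact p = 0.180) the relation missed the threshold of 0.05. It was weak for *Bhlhe41* (r = 0.26, adjusted exact p = 0.452) and *Nfil3* (r = 0.08, adjusted exact p = 0.669).

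These relations lean on the WT + TAM libraries, which fall into separate pairs. Without WT + TAM replicates 6 and 7, the libraries farthest from the median of *Arntl*, r was -0.76 for *Dbp* (adjusted exact p = 0.0509) and -0.84 for *Hlf* (adjusted exact p = 0.160). Over the 10 libraries of the other 3 groups r was -0.68 for *Dbp* (adjusted exact p = 0.102) and -0.73 for *Hlf* (adjusted exact p = 0.319). The sign held for *Dbp* and *Hlf*, but neither relation then passed. For the other factors r over these 10 libraries was -0.50 for *Ciart*, -0.25 for *Rora*, -0.21 for *Tef* and 0.11 for *Bhlhe40*. It was 0.21 for *Nfil3* and, with the other sign, -0.26 for *Bhlhe41*.

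**Figure D5:**
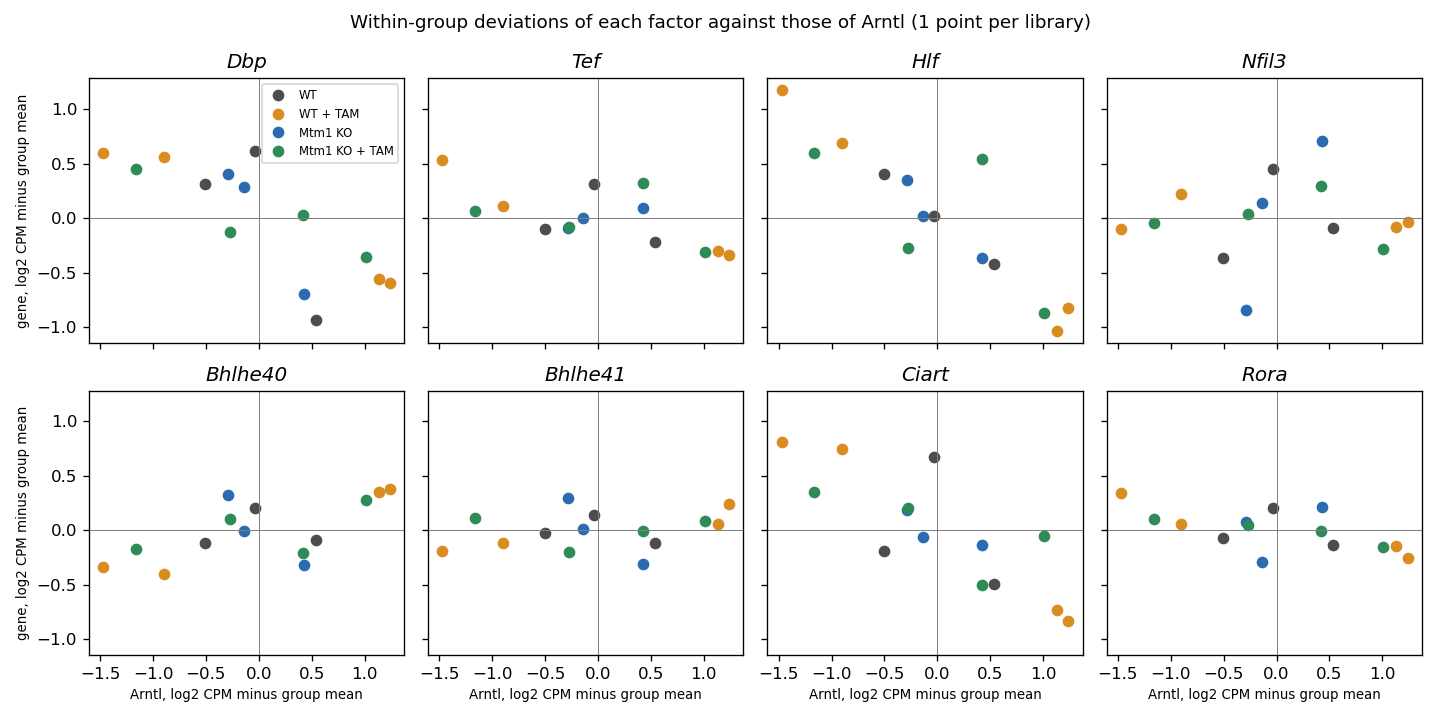
Deviation of each output factor (y axes) against that of *Arntl* (x axes) from their group means, in log2 CPM, with 1 point for each of the 14 libraries coloured by group. *Dbp* and *Hlf* slope downward (r = -0.80 and -0.90), *Bhlhe40* slopes upward (r = 0.62, but 0.11 over the libraries outside WT + TAM), and *Nfil3* shows no slope (r = 0.08).

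Among all 12813 genes with a mean of at least 1 CPM, those whose deviations were most like those of a factor were outside the clock lists except *Per3*, and with so many genes and 14 libraries a high r is a description only. *Hlf* was closest to *Per3*, a clock repressor gene (r = 0.92). *Dbp* was closest to *Chchd6* (r = 0.90), *Tef* to *Capn10* (r = 0.95), *Rora* to *Nop56* (r = 0.93) and *Ciart* to *Ifrd2* (r = 0.95). *Bhlhe40* was closest to *Tmem45a* (r = 0.93), with the mitotic kinesin genes *Kif20b* and *Kif11* next (r = 0.93 and 0.92). *Bhlhe41* was closest to *Tmem263* (r = 0.90), with the interferon-induced genes *Isg15* and *Rtp4* next (both r = 0.89). *Nfil3* was closest to *Ahcy* (r = 0.94).

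The rest of the clock was read from a list of 17 core genes. The quasi-likelihood test called none of the 17 in *Mtm1* KO against WT (7 at an unadjusted p of at most 0.05, as were 30.1% of all genes) or WT + TAM against WT (8, beside 10.7%), nor any of the 16 tested in *Mtm1* KO + TAM against *Mtm1* KO (4, beside 7.55%). Their median log2 fold changes were -0.24, 0.09 and 0.18, where the medians of all genes lay between -0.01 and 0.02. In *Mtm1* KO + TAM against WT, 2 of the 17 were called, beside 7.7% of all genes. There, *Per2* rose by a log2 fold change of 2.05 (SE 0.34, adjusted p = 0.00272) and *Rorb*, at very low counts, fell by 2.93 (SE 0.60, adjusted p = 0.00748). *Per2* stood at 5.09, 5.15 and 1.52 CPM in WT and 16.6, 19.5, 16.7 and 13.1 in *Mtm1* KO + TAM, and it was not called with all 16 libraries (adjusted p = 0.0102). *Rorb* was called in 1 of the 7 fits that left out a library. *Per1*, another repressor gene, fell by 0.72 in *Mtm1* KO + TAM against WT + TAM (SE 0.15, adjusted p = 0.00706), where 6.72% of all genes were called. This call was lost in all 8 fits that left out a library. *Arntl* had a log2 fold change of -1.21 in *Mtm1* KO (SE 0.28, adjusted p = 0.0254) and -1.68 in *Mtm1* KO + TAM (SE 0.41, adjusted p = 0.0172) against WT.

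Of 12 other clock-controlled genes, the quasi-likelihood test called none in *Mtm1* KO against WT or in either tamoxifen comparison, with 3 at an unadjusted p of at most 0.05 in *Mtm1* KO against WT (beside 30.1% of all genes), 4 with tamoxifen in *Mtm1* KO (beside 7.55%) and 3 with tamoxifen in WT (beside 10.7%). *Ucp3*, a mitochondrial carrier of fuel use, fell by 1.10 in *Mtm1* KO + TAM against WT (SE 0.14, adjusted p = 8.53e-04) and by 1.07 against WT + TAM (adjusted p = 0.00322). *Nr1i3*, a nuclear receptor gene, fell by 1.19 against WT + TAM (adjusted p = 0.00756). Of all genes, 7.7% were called in *Mtm1* KO + TAM against WT and 6.72% against WT + TAM. Leaving out each library in turn, *Ucp3* stayed called in 7 of 7 fits against WT and 4 of 8 against WT + TAM, and *Nr1i3* in 1 of 8.

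Some output factors also respond to glucocorticoids, fasting and low oxygen, and the calls of such genes are given beside the share over all genes. Of 18 glucocorticoid and fasting genes, *Cdkn1a*, a cell cycle inhibitor, and the metallothioneins *Mt1* and *Mt2* were called in *Mtm1* KO against WT, with log2 fold changes of 3.65, 3.29 and 4.81, where 3.6% of all genes were called. All 3 were also called in *Mtm1* KO + TAM against WT (3.46, 3.37 and 4.83), where the kinase *Sgk1* fell by 0.95 and 7.7% of all genes were called. The call of *Mt1* held there in 3 of the 7 fits that left out a library. Against WT + TAM, *Cdkn1a* was higher by 2.63 and *Sgk1* lower by 0.94 in the log2 fold change, beside 6.72% of all genes called. With tamoxifen in WT none of the 18 was called, although 13 were at an unadjusted p of at most 0.05, beside 10.7% of all genes, with a median of 0.79. Of 12 hypoxia genes, *Egln3* and *Egln1*, oxygen-sensing hydroxylases, were called in each comparison of a knockout group with a wild-type group. The shares of all genes called there were 3.6%, 7.7% and 6.72%. *Egln3* was higher by at least 1.23, and *Egln1* was lower by about the same amount each time (-0.67, -0.67 and -0.66). The glucose transporter gene *Slc2a1* was higher in *Mtm1* KO + TAM against WT + TAM (0.74). When each library was left out in turn, the call of *Egln3* held in every fit, that of *Egln1* in 0 of 6, 1 of 7 and 3 of 8 fits, and that of *Slc2a1* in 2 of 8.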

How the data were processed

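The members and gene lists were chosen with earlier results of these data known. Per the authors, reads were aligned to GRCm38 and counted on genes with HTSeq; the submitters' processing notes name bcl2fastq 2.17, STAR 2.5.0c and Cufflinks 2.2.1. For annotation, counting mode and strand setting, the entry is: not given in the sources used here. The deposited count table holds raw whole-number counts for 16 libraries, and the deposited RPKM table holds the authors' counts scaled to total count and gene length. Of 120 pairs of libraries, 0 had identical counts.

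Counts were tested in R 4.3.3 with edgeR 4.0.16 (TMM, filterByExpr with minimum count 10 and minimum total 15, quasi-likelihood test, Benjamini-Hochberg adjustment over all genes, threshold 0.01), on the pairs of groups compared in the 14 main libraries, and the difference of tamoxifen effects in 1 fit of 4 groups. All 8 members passed the filter in every comparison. Scripts were tested on simulated data. CPM shown in the text use TMM factors over 16 libraries; deviations use log2 CPM with prior count 2. Reads of overlapping antisense genes cannot be told apart, since strand use is not stated.

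Named genes were the 8 factors, *Mtm1*, *Arntl*, called genes of the core clock list, at most 4 called genes of each other list per comparison, and genes most alike in deviations; *Per2* beyond its call was added after its values were seen. Alternatives were a threshold of 0.05, DESeq2 1.42.0, limma 3.58.1 on log2(RPKM + 0.1) and log2(RPKM + 1), RLE or library size scaling, other filters (none, or 10 counts in every library), 1 fit of 4 groups, 16 libraries, each library left out, and, chosen after seeing the data, WT + TAM libraries left out. Positions are from GENCODE vM21 (GRCm38), promoters from RefSeq (GRCm38.p6).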

Additional observations from a re-analysis of the deposited data

Results flagged for a closer look

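*Nfil3* in WT + TAM replicate 5, at 43.6 CPM, stood apart from the other 3 libraries of its group, which held 34.9 to 35.9 CPM; the gap was 0.881 of the range of the group. This was the single flag among the 16 groups of 4 libraries that could be tested, and chance alone flags about 1 in 20.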

How the results depend on the processing

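No paired analysis was possible because the replicate numbers are not shared between groups, so there was no replicate block to fit. The 3 or 4 libraries of a group limit the precision of each value. Over 864 alternative values of single factors, 55 took the other sign, in 17 of 48 pairs of factor and comparison, none of them a called value; 23 passed the threshold under an alternative only and 1 no longer passed it.

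In *Mtm1* KO against WT, where 0 factors were called, *Bhlhe41* was the 1 factor called at a threshold of 0.05, with DESeq2, RLE, no filter, 10 counts in every library or 1 fit of 4 groups, and leaving out a library gave 0 to 1 (1 without *Mtm1* KO replicate 10). In WT + TAM against WT, DESeq2 called 2. For *Mtm1* KO + TAM against WT, where 1 was called, the threshold of 0.05 gave 4, DESeq2 3, limma 3 with either pseudocount, library size scaling 4, no filter 3, the 16 libraries 0, and leaving out a library 1 to 2 (*Ciart* added without WT replicate 3, adjusted p = 0.00581). For *Mtm1* KO + TAM against WT + TAM, where 0 were called, the threshold of 0.05 gave 2, DESeq2 2, and leaving out WT + TAM replicates 7 and 8 gave 1 (*Ciart*, -1.39, adjusted p = 0.00539). Over all genes, the 531 calls in *Mtm1* KO against WT became 1678 with DESeq2, 1163 with library size scaling, 211 with 16 libraries and 182 to 363 with a library left out (182 without *Mtm1* KO replicate 11). The 19 calls in WT + TAM against WT became 214 with DESeq2 and 2 to 21 with a library left out (2 without WT replicate 4). The 1150 calls in *Mtm1* KO + TAM against WT became 2375 with DESeq2, 297 with 16 libraries and 531 to 1246 with a library left out (531 without WT replicate 4). The 979 calls in *Mtm1* KO + TAM against WT + TAM became 1995 with DESeq2 and 424 to 921 with a library left out (424 without *Mtm1* KO + TAM replicate 15). The cause of these shifts was not tested.

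Without the 2 libraries farthest in *Arntl*, the relation to *Arntl* was -0.76 for *Dbp*, -0.84 for *Hlf* and -0.064 for *Bhlhe41*; over the 10 libraries outside WT + TAM it was -0.68, -0.73 and -0.26; and *Ciart* passed with 16 libraries (-0.71). The difference of *Bhlhe41* with 16 libraries was -30.7 CPM in *Mtm1* KO and -27.4 CPM in *Mtm1* KO + TAM against WT, each at an exact permutation p of 0.0286. Both values take the library labelled WT replicate 1 by its label.

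Values that took the other sign follow. In *Mtm1* KO against WT, *Tef* was 0.027 and 0.026 with limma at pseudocounts of 0.1 and 1 and 0.018 with library size; *Rora* was 0.30 and 0.27 with limma, 0.31 with library size, 0.011 with no filter, 0.013 with 10 counts in every library and 0.12 with 16 libraries. In *Mtm1* KO + TAM against WT + TAM, limma at 0.1 and 1 and library size gave *Nfil3* 0.15, 0.14 and 0.17 and *Bhlhe40* 0.27, 0.26 and 0.24, and limma gave *Dbp* 0.029 and 0.027. In that comparison, without WT + TAM replicates 5 and 6, *Dbp* was 0.35, *Tef* 0.024, *Hlf* 0.69 and *Ciart* 0.19, and without 7 and 8 *Bhlhe40* was 0.37. *Hlf* in WT + TAM against WT was -0.38 without 5 and 6. The difference of tamoxifen effects was 0.35 for *Tef* without 5 and 6, and -0.53 for *Hlf* and 0.23 for *Bhlhe40* without 7 and 8. Leaving out single libraries gave ranges that crossed 0: in *Mtm1* KO against WT, *Bhlhe40* -0.011 to 0.30 and *Rora* -0.11 to 0.14; for *Mtm1* KO + TAM against *Mtm1* KO, *Bhlhe41* -0.055 to 0.24; in WT + TAM against WT, *Nfil3* -0.0016 to 0.41; in *Mtm1* KO + TAM against WT, *Tef* -0.074 to 0.22 and *Nfil3* -0.13 to 0.30; in *Mtm1* KO + TAM against WT + TAM, *Bhlhe40* -0.17 to 0.085; and for the difference of tamoxifen effects, *Tef* -0.19 to 0.19, *Hlf* -0.14 to 0.60 and *Bhlhe40* -0.33 to 0.0006.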

Other observations

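The library labelled WT replicate 1 and *Mtm1* KO replicate 12 stood outside the main set. *Dbp* stood at 43.1 and 25.2 CPM in them, *Hlf* at 3.99 and 1.55 and *Tef* at 189 and 167. *Per2* stood at 1.20 and 1.80 CPM, while *Arntl* stood at 13.8 and 11.7. *Bhlhe40* held 62.4 and 92.6 CPM, *Nfil3* 29.1 and 25.1, and *Rora* 79.3 and 112.

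The glucocorticoid and fasting list and the output factors can be read side by side for the tamoxifen effect in *Mtm1* KO minus that in WT. Of the 8 output factors, 5 were fitted lower and 3 higher, with a median of -0.10 and 3 at an unadjusted p of at most 0.05. Of the 18 genes of the list, 17 were fitted lower, with a median of -0.92 against 0.01 over all genes, and edgeR's quasi-likelihood test called 0 of them, with 8 at an unadjusted p of at most 0.05. DESeq2 called 12 of all 15556 genes and the quasi-likelihood test called 0, with 664 at an unadjusted p of at most 0.05.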
